A study of Mus musculus with 2 samples.

Results

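Sfrp5, Lep, Agt and Retn are 4 mouse genes whose proteins are secreted by fat, and they are often discussed as products of white fat. The regions around them were taken from 2 lists of sites bound by PPARγ, 1 list named as specific to brown adipose tissue (BAT) and 1 as specific to epididymal white adipose tissue (eWAT). A region belonged to a gene when its midpoint fell within 100 kb on either side of the gene's given start, a window of 200 kb. This gave 12 regions, 5 from the BAT list and 7 from the eWAT list, out of 8268 regions in all (3557 BAT and 4711 eWAT). The genes were selected on the regions that these lists hold around them, so the counts, scores and positions below are a description and none of them was tested.

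Both libraries came from chow-fed male 129SV mice aged 8 to 10 weeks, with tissue taken at zeitgeber time 10 h and fixed with 1% formaldehyde. For each tissue, PPARγ was precipitated separately from 4 mice and the recovered DNA was then combined, which left 1 library per tissue and no spread between animals. The series title names EBF2, a transcription factor of brown adipocytes, and the comparison asks which PPARγ sites were particular to either depot. The lists carry no expression values and no regions shared by the depots, so a count of 0 in a window says nothing about sites common to both. Tissue identity could not be checked by the expression of marker genes, since no RNA was measured. It was not checked here against regions at marker genes either.

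PPARγ is a nuclear receptor that binds DNA as a partner of RXR and drives the differentiation of brown and white adipocytes. Its sites often lie far from the genes they act on, so distance alone does not assign a site to a gene. Leptin, the product of Lep, signals the size of fat stores to the brain. Resistin, encoded by Retn, is an adipocyte hormone in mice that opposes insulin action. Agt encodes angiotensinogen, the precursor of the angiotensin peptides that raise blood pressure, and Sfrp5 encodes a secreted inhibitor of Wnt signalling.

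The 4 gene windows did not all hold regions of the white depot. The Sfrp5 window held 4 eWAT-specific regions and 0 BAT-specific ones, and the Agt window held 3 and 0. The Lep window held 3 BAT-specific regions and 0 eWAT-specific ones, and the Retn window held 2 and 0. Regions from eWAT made up 58.3% of the 12 (exact Clopper-Pearson 95% interval 27.7 to 84.8%), close to the 57.0% of both lists together (interval 55.9 to 58.0%). The share was 37.5% without Sfrp5 and 77.8% without Lep. Both intervals treat the regions as independent draws. The 12 regions came from 4 windows chosen with their counts known, and no window mixed the lists. The interval of 27.7 to 84.8% is therefore no measure of the error of that share. Its closeness to 57.0% depends on which genes were chosen. The interval for both lists together covers counting error only. By distance alone, the label "white fat" matched the list of origin in the Sfrp5 and Agt windows and not in the Lep and Retn windows.

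**Figure D1:**
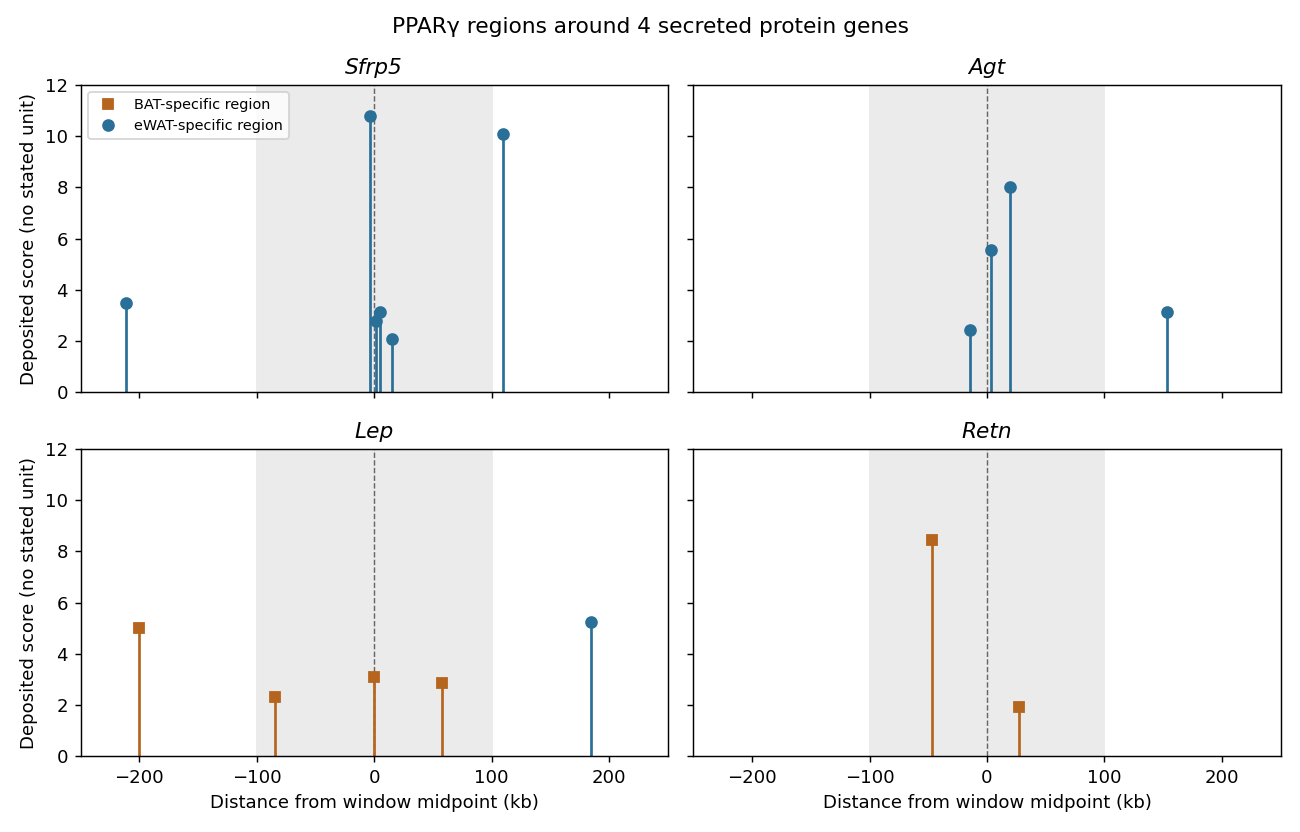
Each panel shows the PPARγ regions within 250 kb of 1 gene, with distance from the window midpoint in kb on the x axis and the deposited score, which has no stated unit, on the y axis. Shading marks the 100 kb on each side that defined the window; it holds eWAT-specific regions (circles) at Sfrp5 and Agt and BAT-specific regions (squares) at Lep and Retn.

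Windows of this width usually held no region at all. When the autosomes and chromosome X were tiled with 13169 windows of 200 kb, 17.5% held at least 1 BAT-specific region, 23.6% held at least 1 eWAT-specific region and 34.4% held a region of either list. A window like that of Sfrp5, with at least 4 eWAT-specific regions and no BAT-specific one, made up 0.721% of the tiled windows. The corresponding share was 1.91% for at least 3 eWAT-specific regions alone, as at Agt. It was 1.47% for at least 3 BAT-specific regions alone, as at Lep, and 3.48% for at least 2, as at Retn. Among the 2084 tiled windows with at least 2 regions, 57.3% held regions of 1 list only, as all 4 gene windows did, and 6.75% of all tiled windows held regions of both lists. The tiling includes gene-poor and unmappable sequence, and the genes were chosen with these counts known, so the shares give the background and no measure of chance.

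**Figure D2:**
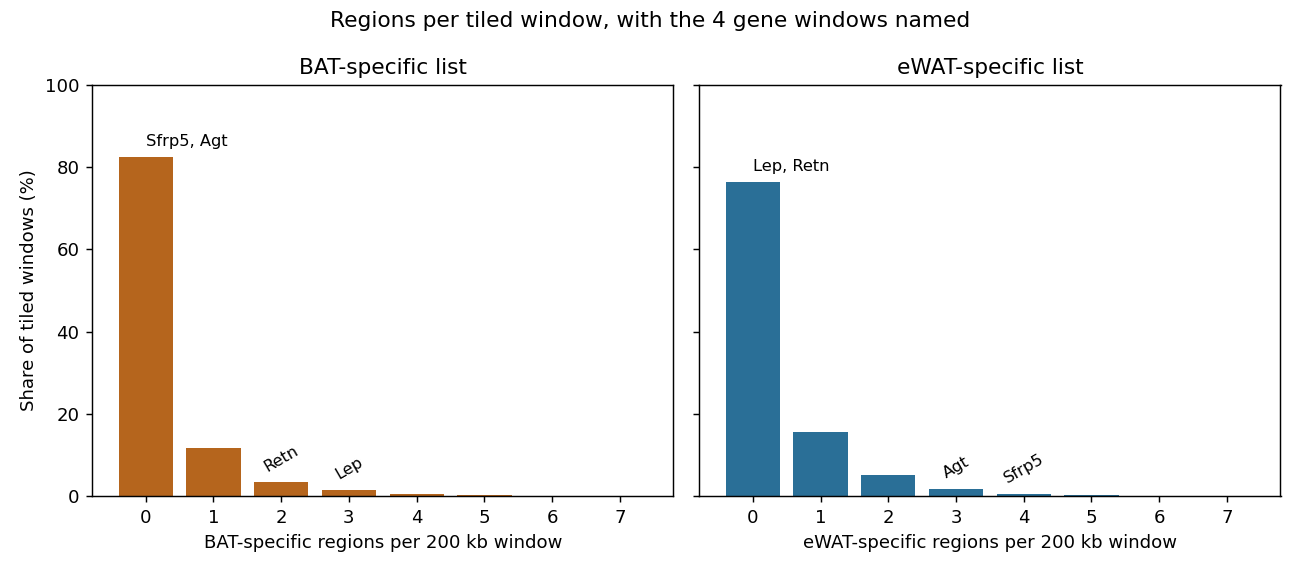
Bars give the share of tiled 200 kb windows, in percent, by the number of BAT-specific (left) or eWAT-specific (right) regions they hold, drawn up to 7 regions. Gene names mark the count in each gene's own window: Sfrp5 holds 4 and Agt 3 eWAT-specific regions, Lep holds 3 and Retn 2 BAT-specific regions, and each gene sits at 0 in the other list.

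Regions lay close to the given start at 3 of the genes, so the reference sequence before the annotated start of those genes is shown. Each line is the 250 bases before the start, 5′ to 3′ on the gene's strand, from RefSeq in build GRCm38.p6: chr6:29059971-29060220 (plus strand) for Lep, chr19:42202253-42202502 (minus strand) for Sfrp5 and chr8:124569707-124569956 (minus strand) for Agt. That build is not the build of the lists, so these positions cannot be laid against the regions. Capitals mark matches to TATAAN (where N is any base), the motif of the TATA box, which was added after the sequences were seen.
Lep: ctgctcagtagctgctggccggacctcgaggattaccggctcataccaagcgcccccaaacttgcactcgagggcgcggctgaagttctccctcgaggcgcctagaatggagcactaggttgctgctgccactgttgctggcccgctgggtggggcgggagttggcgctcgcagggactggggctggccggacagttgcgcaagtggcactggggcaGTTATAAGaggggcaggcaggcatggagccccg
Sfrp5: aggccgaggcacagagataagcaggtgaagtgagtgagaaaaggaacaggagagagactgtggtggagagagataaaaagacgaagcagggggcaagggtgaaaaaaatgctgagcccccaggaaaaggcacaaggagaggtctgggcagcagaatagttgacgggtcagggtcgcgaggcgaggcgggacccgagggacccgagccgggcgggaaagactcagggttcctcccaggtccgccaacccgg
Agt: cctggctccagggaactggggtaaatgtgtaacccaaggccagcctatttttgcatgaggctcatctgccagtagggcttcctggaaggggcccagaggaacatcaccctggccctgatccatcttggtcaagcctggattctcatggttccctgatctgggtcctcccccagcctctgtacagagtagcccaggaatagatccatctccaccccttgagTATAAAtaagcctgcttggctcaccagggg
The Lep sequence (65.6% G and C) carries TATAAG starting 31 bases before the annotated start, overlapped by the reverse-strand match GTTATA. The Agt sequence (55.6% G and C) carries TATAAA starting 30 bases before its start. The Sfrp5 sequence (59.6% G and C) has no match to TATAAN, and neither does that of Retn, which is not shown. The motif occurs on either strand in 22.7% of the 32851 promoter windows of the same length. The median share of G and C over those windows was 52.4%, with a 5th to 95th percentile range of 34.8 to 73.6%.

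Each of the 4 genes, Retn included, had a promoter sequence in the table and was searched on both strands for letters tied to the factors of the study. None of the 4 carried AGGTCA, the core element of many nuclear receptors, which 14.0% of all promoter windows hold. None carried AGGTCANAGGTCA, the direct repeat preferred by PPARγ with RXR (0.0335% of windows), or TCCCNNGGGA, a palindrome of the EBF family (0.779%). AGGTCA is part of the direct repeat, so those searches overlap. A missing match says only that these exact letters are not in the 250 bases searched.

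At Sfrp5, the Wnt inhibitor, the eWAT-specific sites were crowded around the gene. The strongest lay on chromosome 19 at 42268036 to 42268235, 3.87 kb on the lower-coordinate side of the given start, with a score of 10.80. That score ranked 51 of 4711 in the eWAT list (1.08%) and was the highest of the 152 eWAT-specific regions on chromosome 19. Positions of regions are the deposited ones, counted from 1, and their build may be mm8 or mm9, whereas the windows were given in mm9. The given starts are whole kb or coarser, and they do not say which end of a minus-strand gene they mark, so distances of a few kb are approximate.

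The other 3 Sfrp5 regions were weaker. They lay 1.80 kb (42273701 to 42273900, score 2.79, rank 2170), 4.58 kb (42276484 to 42276683, score 3.14, rank 1739) and 15.4 kb (42287323 to 42287522, score 2.09, rank 3477) on the higher-coordinate side. The eWAT list had a median score of 2.79, so these regions lay, in that order, at, above and below its middle. The 4 midpoints spanned 19.3 kb, with gaps of 5.67, 2.78 and 10.8 kb, whereas the median distance between an eWAT-specific region and its closest fellow was 71.6 kb. Of all eWAT-specific regions, 1.80% had at least 3 others of their list within 20 kb, a distance set after the Sfrp5 span was seen.

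The scores fall on even steps, as read counts multiplied by 1 factor would, with a step of 0.348 in the eWAT list and 0.0687 in the BAT list. The strongest Sfrp5 region stood at 31 steps. If 1 step is 1 sequenced tag, its 95% Poisson interval is 21.1 to 44.0 tags, which covers counting error only. The 3 weaker regions stood at 8, 9 and 6 steps, with intervals of 3.45 to 15.8, 4.12 to 17.1 and 2.20 to 13.1. Those 3 intervals overlap, so the weaker sites cannot be ranked among themselves, while the strongest lies above all 3.

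A further strong eWAT-specific site fell just outside the Sfrp5 window. It lay 110 kb from the given start (42381568 to 42381767) with a score of 10.10, or 29 steps (interval 19.4 to 41.6), and ranked 66 in the list. It was the second highest eWAT-specific score on chromosome 19 (rank 2 of 152), and its interval overlaps that of the strongest site beside Sfrp5. BAT-specific regions were far away: the nearest lay 1499 kb from the given start. The 4 Sfrp5 regions were 1495 to 1514 kb from the nearest BAT-specific region, against a median of 235 kb for the eWAT list, and 7.32% of eWAT-specific regions lay at least 1495 kb from the BAT list.

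At Agt, the angiotensin precursor gene, 3 eWAT-specific sites spread over 34.8 kb, with gaps of 18.5 and 16.3 kb. The strongest lay 20020 bp on the higher-coordinate side of the given start on chromosome 8 (127109921 to 127110120), with a score of 8.01. It ranked 143 in the eWAT list (3.04%) and 5 of the 217 eWAT-specific regions on chromosome 8. The next lay 3.71 kb on the same side (127093616 to 127093815), with a score of 5.57 and rank 419 (8.89%). The weakest lay 14.7 kb on the other side (127075159 to 127075358), with a score of 2.44 and rank 2721, below the list median.

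In steps the Agt sites stood at 23 (interval 14.6 to 34.5), 16 (9.15 to 26.0) and 7 (2.81 to 14.4). The intervals of the upper pair overlap, and that of the weakest ends below the lower bound of the strongest. Another eWAT-specific site lay outside the window at 154 kb, with a score of 3.14. BAT-specific regions appeared farther out, the nearest 281 kb from the given start with a score of 2.88, and within 500 kb there were 9 of them and 6 eWAT-specific ones. The 3 Agt regions lay 266 to 284 kb from the nearest BAT-specific region, a distance that 46.1% of the eWAT list reached or passed. The eWAT-only pattern at Agt therefore held for windows of up to 200 kb on each side and not at 500 kb.

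At Lep, the leptin gene, the window held BAT-specific sites alone, and 1 of them spanned the given start. That region lay on chromosome 6 at 29009873 to 29010072, its midpoint 28 bp from the given start, and Lep is on the plus strand in RefSeq. The given start is a whole kb or coarser and the build of the list is not known. The 28 bp is therefore not exact, and overlap with the true start was not determined. It scored 3.09 and ranked 2104 of 3557 in the BAT list (59.2%), below the list median of 3.57. The other BAT-specific regions at Lep lay 57.6 kb downstream (29067540 to 29067739, score 2.88, rank 2314) and 84.7 kb upstream (28925232 to 28925431, score 2.33, rank 3112).

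All 3 Lep regions scored below the median of the BAT list. They stood at 45, 42 and 34 steps, with Poisson intervals of 32.8 to 60.2, 30.3 to 56.8 and 23.5 to 47.5 that overlap one another. The gaps between them were 84.6 and 57.7 kb, of the order of the 61.4 kb median distance between a BAT-specific region and the nearest other one. The nearest eWAT-specific region lay downstream, 184 kb from the given start (29194198 to 29194397), with a score of 5.23 and rank 503 in its own list (10.7%). The 3 Lep regions lay 127 to 269 kb from the nearest eWAT-specific region, and 55.2% of the BAT list lay at least 127 kb from one. A BAT-specific region of score 5.01 (rank 822) lay 200 kb upstream, well outside the window.

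At Retn, the resistin gene, the window held 1 strong and 1 weak BAT-specific site. The strong one lay 46.8 kb upstream of the given start on chromosome 8 (3609103 to 3609302), taking the plus strand that RefSeq gives. Its score of 8.45 ranked 178 of 3557 (5.00%) and 10 of the 209 BAT-specific regions on chromosome 8. The weak one lay 27.4 kb downstream (3683322 to 3683521), with a score of 1.92 that ranked 3549, almost at the end of the list, whose lowest score is 1.79.

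The Retn sites stood at 123 steps (interval 102 to 147) and 28 steps (18.6 to 40.5), which do not overlap. Neither lay within 25 kb of the given start, so Retn was the only gene of the 4 without a region that close. No further region of either list was found within 500 kb. The nearest eWAT-specific region was 835 kb from the given start. The 2 sites were 808 and 882 kb from the nearest eWAT-specific region, against a median of 149 kb for the BAT list, and 8.15% of BAT-specific regions were at least 808 kb away.

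**Figure D3:**
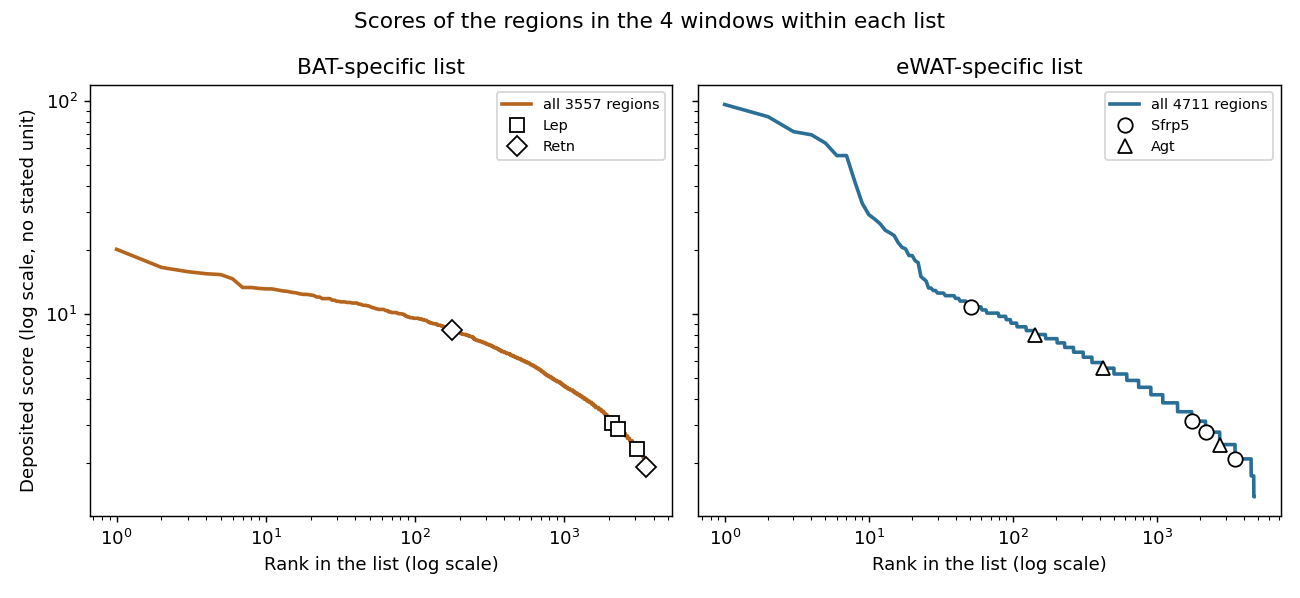
Lines give the deposited score of every region against its rank in the BAT-specific (left) and eWAT-specific (right) list, both axes on a log scale, with open symbols for the regions in the 4 gene windows. Of the eWAT symbols, the strongest Sfrp5 region (10.80) and 2 Agt regions (8.01 and 5.57) stand well up the curve; of the BAT symbols only the upstream Retn region (8.45) does.

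Set against their own lists, the members of both tissues ranged from high to low ranks, from 1.08 to 73.8% of the eWAT list and from 5.00 to 99.8% of the BAT list. Of the 7 eWAT-specific regions, 4 scored above the list median, 1 at it and 2 below it, and their median was 3.14 against 2.79 for the list. Of the 5 BAT-specific regions, 1 scored above the list median and 4 below it, with a median of 2.88 against 3.57. Scores of the 2 lists have no stated common scale, so a Retn score and an Agt score cannot be compared directly. In steps, 4 of the 7 eWAT-specific regions stood under 10, as did 63.1% of the whole eWAT list. None of the 5 BAT-specific regions stood under 10, and the BAT list as a whole starts at 26 steps, against 4 for the eWAT list. A step was 0.348 in the eWAT list and 0.0687 in the BAT list, so 10 steps is an unlike score in each. The read depth of the libraries is not given. Whether depth bears on this contrast or on the counts of 0 was not tested.

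How close the sites sat to the given starts also differed among the genes. The contrast is between chosen genes, not depots, and the share of either whole list this close to a gene start was not determined. All 7 eWAT-specific regions lay within 25 kb of the given start of Sfrp5 or Agt, and widening from 25 to 100 kb on each side added none. Of the 5 BAT-specific regions, only the one at the given Lep start lay within 25 kb. Widening to 50 kb added both Retn regions, and widening to 100 kb added the other 2 Lep regions. At 200 kb on each side Lep gained its first eWAT-specific region, while Sfrp5, Agt and Retn still held regions of 1 list only. At 500 kb Sfrp5 (8 eWAT-specific) and Retn (2 BAT-specific) still did.

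**Figure D4:**
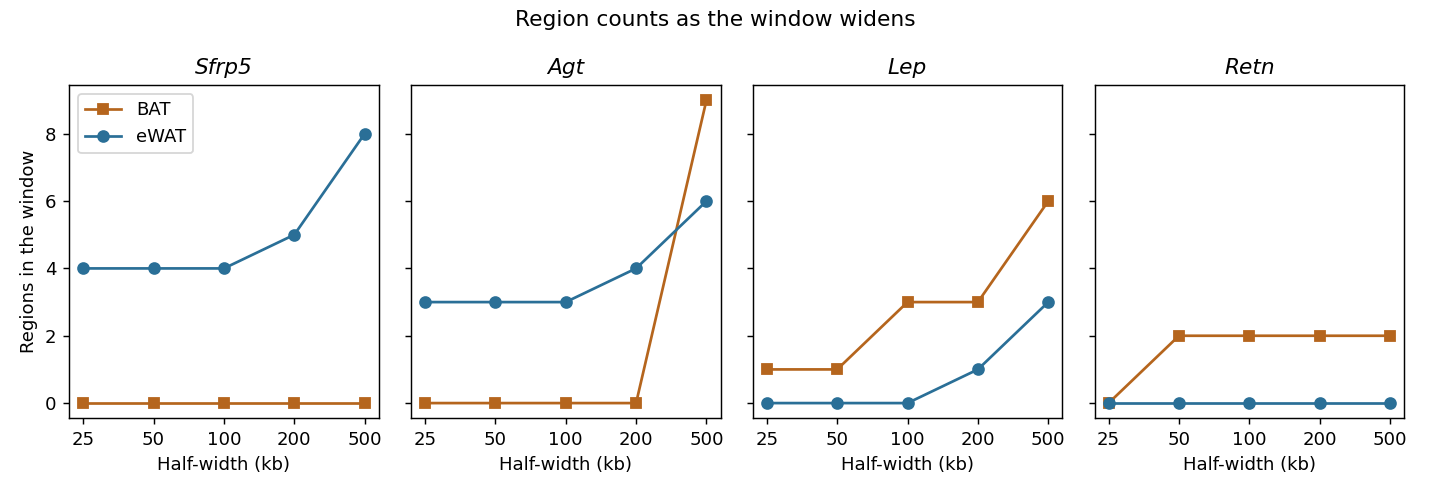
Each panel gives the number of BAT-specific (squares) and eWAT-specific (circles) regions around 1 gene as the window grows from 25 to 500 kb on each side (x axis, unevenly spaced steps). Sfrp5 and Agt keep their count from 25 to 100 kb, Lep rises from 1 to 3 BAT-specific regions, and 9 BAT-specific regions enter at Agt at 500 kb.

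A region was counted for a gene by distance alone, which does not show that it acts on that gene. In the RefSeq gene order of GRCm38, the protein-coding neighbours are Zfyve27 and Golga7b for Sfrp5, Lrrc4 and Rbm28 for Lep, Cog2 and Capn9 for Agt, and Stxbp2 and Mcemp1 for Retn. Gene positions in the build of the lists were not used here, so whether a region lay in an exon, an intron or between genes was not determined.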

How the data were processed

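PPARγ ChIP-seq regions were deposited by the authors as 1 headerless list per tissue, each row giving a 200 bp region, a name and a score. The deposited score has no stated unit. Per the labels' protocols, ChIP DNA of 4 mice per tissue was pooled. Bowtie, HOMER and the builds mm8 and mm9 are listed, per the submitters' processing notes, with neither version nor role. Not given in the sources used here are the build of the lists, the read depth and the rule for tissue-specific regions.

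Samples were grouped by labelled tissue. The 4 genes and their mm9 windows were chosen with earlier results of these data known. The text names those 4 genes and every region with its midpoint in their windows. Ranks count higher scores in the same list, plus 1. Steps were fitted by least squares: 99.9% of BAT and 99.8% of eWAT scores were whole multiples within 0.005. Intervals are 95%. Window counts, tiling and steps were tested on simulated data. Alternatives covered window width, overlap, score floors, merging, ranking and tiling. Python 3.11.15, pandas 2.3.3 and scipy 1.17.1 were used. RefSeq (GRCm38.p6) gave names, gene order, strand and promoter sequences.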

Additional observations from a re-analysis of the deposited data

How the results depend on the processing

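With 500 kb on each side, tried because the windows are in mm9 and the lists may be in mm8 (the shift between those builds was not measured), counts rose to 8 (Sfrp5, eWAT), 6 (Lep, BAT), 3 (Lep, eWAT), 9 (Agt, BAT) and 6 (Agt, eWAT). With 200 kb, 1 eWAT region entered at Lep. With 50 kb the Lep BAT count was 1. With 25 kb it was 1, the Retn BAT count was 0 and the eWAT share was 87.5%. A floor of 10 score steps left 1 eWAT region at Sfrp5, and merging at the wider of the 2 distances tried also left 1. The eWAT share over the other alternatives ran from 37.5 to 77.8%, the lower end with the step floor or without Sfrp5 and the upper end without Lep. The step floor takes out 63.1% of the whole eWAT list and 0% of the BAT list. The 37.5% under that floor therefore cannot be set beside the 57.0% of the full lists. Counting ties, the highest score lay in the top 60.8% of its list at Lep and 3.57% at Agt. On its own chromosome it lay in the top 0.658% at Sfrp5 and 2.30% at Agt. In windows centred on a region of the list, another was found for 58.7% of BAT and 56.8% of eWAT regions. The other 83 of 101 alternative values stayed within 1.5 times the count or within the 95% interval. Some of them could not move: a count of 0 cannot rise with a narrower window or a score floor. Neither score floor could remove a BAT region, as that list starts at 26 steps. The interval for the eWAT share, 27.7 to 84.8%, is wide and treats the regions as independent, so the tally is no measure of stability. No count changed under the 1 bp overlap, merging within 1 kb or the lowest BAT score as floor. A list in mm8 could not be placed more exactly. No paired analysis was possible because there was 1 pooled library per tissue, and neither could be left out. Few score steps limit the precision of the weaker eWAT regions.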
